A study of Mus musculus with 5 samples.

Results

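The Runx3 peak list of IL-2-activated NKC holds 11676 peaks, of which 467 (4.0%, 95% Wilson interval 3.66 to 4.37%) had no RUNX motif anywhere between their edges. The motif was TGNGGN with T or C in place of each N, the consensus of the study's methods, and it was searched on both strands of the whole peak sequence in the mouse genome build mm9. These motif-free peaks were compared with the other 11209 Runx3 peaks (motif-bearing peaks) and with nearby sequence that also lacked the motif. All libraries came from splenic NK cells of ICR mice, isolated by negative selection and cultured for 7 days with 1000 units/ml human recombinant IL-2, with no gene deleted and with age and sex not given in the labels. The labels describe the cultured cells as all positive for NKp46, an NK cell receptor, and give chromatin of about 300 bp and reads of 40 bp. Runx3 was immunoprecipitated with a home-made polyclonal antibody in 2 libraries and the enhancer-associated histone mark H3K4me1 with a monoclonal antibody in 1 library, and 2 libraries with non-immune rabbit serum (NIS) were the control. The deposited lists hold the start and end of each peak called on joined reads, with no height, depth or value per library, so nothing below carries a replicate error, and p-values describe these lists of peaks and not a spread between animals or cultures. Exact p-values are from Fisher's exact test, two-sided. Intervals cover counting error only.

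RUNX proteins (Runx1, Runx2 and Runx3) are transcription factors that contact DNA through the Runt domain as a heterodimer with Cbfb, which strengthens the contact. In lymphocytes they work at enhancers and promoters together with other factors, among them ETS, T-box and AP-1 proteins. Chromatin immunoprecipitation recovers DNA that a factor contacts directly as well as DNA that reaches it through another protein, and a peak list alone does not separate them.

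The sequences of a few motif-free peaks show the letters that the results below turn on. The first set is from peaks whose centres lay farther than 1 kb from any transcription start site (TSS), called distal. Capitals mark, on either strand, the 9 6-letter words that differ from the RUNX motif by 1 letter and were more frequent in distal motif-free peaks than beside them (each is named with its values below). Each line is a stretch of 160 bp around the peak centre that overlaps no annotated exon, in mm9. It is named after a gene whose domain (defined below) holds the peak, which can lie far from that gene.
Id3, chr4:135644581-135644740, plus strand: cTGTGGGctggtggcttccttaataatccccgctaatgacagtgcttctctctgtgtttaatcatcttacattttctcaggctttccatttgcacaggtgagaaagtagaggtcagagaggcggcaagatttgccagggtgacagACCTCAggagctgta
Jun, chr4:94871270-94871429, plus strand: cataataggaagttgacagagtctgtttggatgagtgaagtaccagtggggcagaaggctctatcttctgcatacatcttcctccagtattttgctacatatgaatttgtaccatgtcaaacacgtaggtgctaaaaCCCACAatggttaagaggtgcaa
Gzmn, chr14:56787041-56787200, plus strand: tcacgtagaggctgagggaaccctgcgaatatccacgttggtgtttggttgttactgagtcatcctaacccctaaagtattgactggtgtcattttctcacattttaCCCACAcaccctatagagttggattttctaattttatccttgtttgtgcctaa
Tnf, chr17:35337509-35337668, plus strand: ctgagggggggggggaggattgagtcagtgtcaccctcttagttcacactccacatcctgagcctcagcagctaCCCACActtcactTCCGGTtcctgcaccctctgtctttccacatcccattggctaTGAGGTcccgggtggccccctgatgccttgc
Xcr1, chr9:123781326-123781485, plus strand: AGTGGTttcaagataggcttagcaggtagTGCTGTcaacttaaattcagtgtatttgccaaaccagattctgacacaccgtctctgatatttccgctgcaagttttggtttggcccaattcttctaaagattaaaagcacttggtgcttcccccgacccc
Ebf1, chr11:44736738-44736897, plus strand: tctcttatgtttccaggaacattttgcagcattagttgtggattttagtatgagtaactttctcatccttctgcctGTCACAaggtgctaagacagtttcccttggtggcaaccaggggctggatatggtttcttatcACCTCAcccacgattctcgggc
Runx1, chr16:92820805-92820964, plus strand: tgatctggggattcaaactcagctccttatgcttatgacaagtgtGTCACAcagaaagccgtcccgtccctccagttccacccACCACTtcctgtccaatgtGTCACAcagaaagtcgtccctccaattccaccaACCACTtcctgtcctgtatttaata
Etv3, chr3:87327635-87327794, plus strand: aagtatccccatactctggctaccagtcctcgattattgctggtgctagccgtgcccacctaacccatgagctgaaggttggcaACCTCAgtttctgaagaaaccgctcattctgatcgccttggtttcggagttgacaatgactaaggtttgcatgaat
The second set is from peaks centred within 1 kb of a TSS (promoter peaks), in stretches of 120 bp. Here capitals mark ETS motifs (NGGAAN, with A or C first and A or G last) and GC boxes (GGGCGG), again on either strand.
Stat3, chr11:100800855-100800974, plus strand: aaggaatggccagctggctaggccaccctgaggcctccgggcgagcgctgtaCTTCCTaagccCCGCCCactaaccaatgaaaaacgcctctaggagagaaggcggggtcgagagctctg
Cdkn2aip, chr8:48799504-48799623, plus strand: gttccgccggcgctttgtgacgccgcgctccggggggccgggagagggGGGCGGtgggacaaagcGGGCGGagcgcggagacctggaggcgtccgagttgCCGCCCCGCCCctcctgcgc
Cacybp, chr1:162143104-162143223, plus strand: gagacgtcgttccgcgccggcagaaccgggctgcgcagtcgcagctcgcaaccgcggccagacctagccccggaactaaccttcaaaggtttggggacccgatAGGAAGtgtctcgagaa
The Runx1 stretch held 4 of the marked words, more than any other distal stretch shown, and the Jun, Gzmn and Etv3 stretches held 1 each.

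The share of peaks without a motif fell with peak width. It was 6.55% (190 of 2902) in peaks of 238 to 591 bp, 4.56% in those of 592 to 703 bp, 3.34% in those of 704 to 833 bp and 1.57% (46 of 2923) in those of 834 to 6046 bp. Windows of the same widths, placed 10 kb to either side and clear of Runx3 peaks, lacked the motif in 43.9, 33.1, 26.5 and 16.9%. In every width class, then, the peaks lacked the motif less often than the windows, and the intervals did not overlap. Motif-free peaks were narrower, with a median of 624 bp (range 255 to 1376 bp) against 708 bp in motif-bearing peaks. Of the motif-bearing peaks, 1898 held exactly 1 motif, and these had a median width of 632.5 bp.

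**Figure D1:**
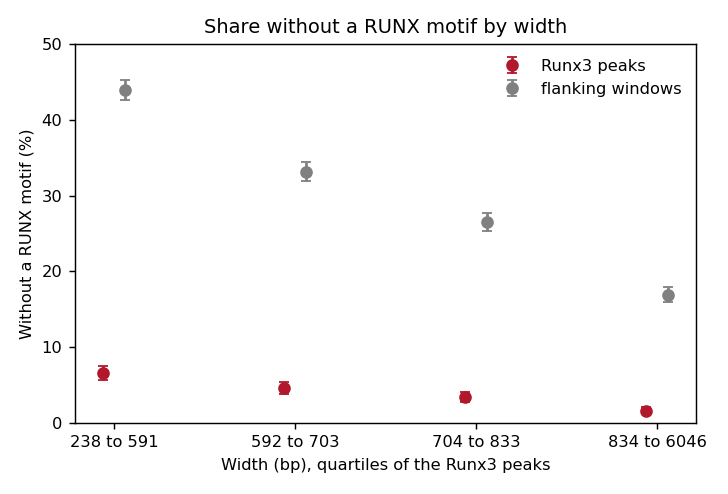
Share of Runx3 peaks (red) and of flanking windows of the same width (grey) that lack the RUNX motif, in percent, by quartile of peak width in bp, with 95% Wilson intervals. The peaks run from 6.55% down to 1.57% and the windows from 43.9% down to 16.9%.

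How many peaks counted as motif-free rested on where the motif was sought. Extending each peak by 50, 100 or 200 bp on both sides left 404, 340 and 252 peaks. When only the central 200 bp were searched, 2690 peaks (23.0%) had no motif there. The 5-letter core TGNGG (T or C in place of N, last base free) was missing from only 85 peaks (0.728%), so 382 of the 467 held the motif with a purine at its last position (81.8%). So did 194 of 329 flanking windows without the motif (59.0%), which were somewhat narrower than the peaks. The motif did not lie just outside the edges more often than by the windows. It was within 100 bp of an edge for 28.9% of motif-free peaks (135 of 467) and for 29.8% of 329 flanking windows that also lacked it (odds ratio 0.958, 95% interval 0.695 to 1.32, exact p = 0.813). The largest distance to a motif was 2273 bp, at the peak at Cir1 (chr2:73150488-73151097). It was 2049 bp at Cacybp, 2004 bp at Gm4978, 1727 bp at a peak 823556 bp from Sel1l, and 1635 bp at Stk24. None of those 5 peaks overlapped an H3K4me1 peak, which 187 of all 467 motif-free peaks did (40.0%).

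GC content did not set the motif-free peaks apart (median 49.6% in both sets). Nor was sequence copy number a visible difference. Under 90% of the 40-bp words of the peak were unique in the genome in 4.71% of motif-free and 3.90% of motif-bearing peaks (odds ratio 1.22, 0.748 to 1.89, adjusted exact p = 0.811). Chromosome X held 1 motif-free peak of 60 Runx3 peaks, and among autosomes the share ran from 2.92 to 6.88%.

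Promoters and CpG-rich sequence made up somewhat more of the motif-free peaks. In all, 140 (30.0%) were centred within 1 kb of a TSS against 25.1% of motif-bearing peaks (odds ratio 1.28, 1.04 to 1.57). This missed the threshold after Benjamini-Hochberg adjustment over 11 position features (adjusted exact p = 0.0709). It passed in a binomial logistic model with width as a covariate (odds ratio 1.61, adjusted p = 3.87e-05). Peaks with at least 50% GC and an observed to expected CpG ratio of at least 0.6 were 24.6% of motif-free and 17.7% of motif-bearing peaks (odds ratio 1.52, adjusted exact p = 0.00236). The other features did not pass the test without the covariate. With it, centres 1 to 5 kb from a TSS were fewer among motif-free peaks (13.1 against 17.3%, odds ratio 0.686 in the binomial model, adjusted p = 0.0267). Centres lay in introns in 44.5 and 45.4%, between genes in 42.4 and 41.9%, and over 50 kb from a TSS in 12.6 and 12.0%. Another Runx3 peak was centred within 5 kb in 21.6 and 21.0%.

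The 327 distal motif-free peaks carried near matches to the RUNX motif at their centres. All 6-letter words, taken on both strands, were sought in the middle 200 bp of the peaks and of 247 flanking windows without the motif, leaving out the 4 words that are the motif itself. Of 2076 words, 87 (4.19%) were more frequent in the peaks and 88 (4.24%) less frequent, at an adjusted p under 0.05 by the exact test. Among the 56 words that differ from the motif by 1 letter, 9 were more frequent (16.1%) and 0 were less frequent. TGTGGG, the motif with G at its last position, had the smallest p of all 2076. It was in 49.2% of these peaks but 13.8% of their windows (odds ratio 6.08, adjusted exact p = 1.27e-16). TGAGGT, with A as letter 3, came next, at 40.4 and 11.7% (odds ratio 5.09, adjusted exact p = 1.02e-11). AGTGGT, with A in front, ranked 7, at 34.9 and 13.0% (odds ratio 3.60, adjusted exact p = 3.79e-07). The other variants were TGTGAC (22.6 and 10.1%), GGTGGT (21.1 and 10.1%), AGTGGC (20.5 and 10.5%), TGCTGT (22.6 and 13.0%), TCCGGT and TGCGGG (each 5.20 and 0.810%).

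Not every near match rose. TGTGGA was in 11.9% of distal motif-free peaks, and it did not pass the test against the windows. Words with the same letters in another order were set beside each of the 9 variants. The 14 other words with the letters of TGTGGG had a median odds ratio of 2.0, with 5 of them called and none above TGTGGG. The 59 other words with the letters of TGAGGT had a median of 1.11, with 6 called and none above TGAGGT. Each of the other 7 variants had same-letter words with a larger odds ratio, from 1 of 29 for TGCGGG and 2 of 59 for AGTGGT to 17 of 179 for TGTGAC and 22 of 119 for AGTGGC. Distal motif-free peaks were also richer in GC at their centres (median 49.5%) than the windows (45.5%), and the part of base composition in these differences was not tested.

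**Figure D2:**
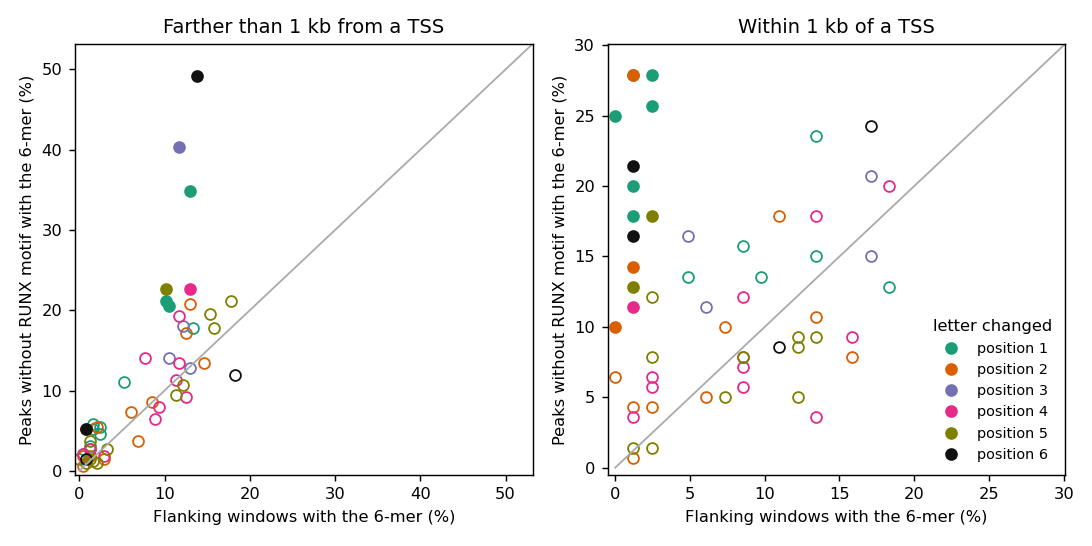
Percent of peaks without RUNX motif (vertical) and of their flanking windows (horizontal) whose central 200 bp hold each of the 56 words that differ from the RUNX motif by 1 letter, coloured by the position changed; filled points have an adjusted p under 0.05 and the line marks equality. In distal peaks (left) 9 points are filled, the highest at 49.2%, and in promoter peaks (right) 14 are.

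The same words were then compared with motif-bearing peaks, a comparison chosen after seeing the data. Of the distal motif-bearing peaks, 1435 had the motif only outside their central 200 bp, so that their centres lacked it as well. Against these, 4 of the 56 near-match words were more frequent in motif-free peaks (7.14%) and 1 was less frequent. TGTGGG was in 49.2 against 34.3% (odds ratio 1.86, adjusted exact p = 1.90e-05) and TGAGGT in 40.4 against 24.9% (odds ratio 2.04, adjusted exact p = 3.01e-06). AGTGGT was in 34.9 against 22.6% (odds ratio 1.83, adjusted exact p = 0.000139) and TCCGGC in 5.50 against 2.23% (odds ratio 2.55, adjusted exact p = 0.0315). TGTGGA was the word that was less frequent, at 11.9 against 18.7% (odds ratio 0.587, adjusted exact p = 0.0315). Against all 8399 distal motif-bearing peaks, 3 of 56 were called (5.36%), namely TGTGGG (odds ratio 2.12), TGAGGT (2.16) and AGTGGT (1.96). These 3 words had already been called in the same motif-free peaks against the windows. Other 6-letter words were not compared with motif-bearing peaks. Whether near matches were called there more often than words in general was therefore not tested.

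The near matches were also sought in longer words. In 7 letters (TGTGGTT with 1 change, also chosen after seeing the data), 7 of 16 words were more frequent in distal motif-free peaks than in windows (43.8%). TGTGGGT was in 26.0 against 4.86% (odds ratio 6.88), TGAGGTT in 19.6 against 3.24% (odds ratio 7.27) and AGTGGTT in 18.0 against 4.45% (odds ratio 4.72). Each of these holds a 6-letter word already called in the same peaks against the same windows, so it largely repeats that result. Words of 7 letters outside the 16 were not tested, so no general share stands beside the 43.8%. The other 4 called were changed at letter 1, 2 or 3, and no word changed at letter 4 or 5 was called. Several of the highest ranked 6-letter words were pieces of these, namely GTGGTT (27.2 against 6.88%), GAGGTT (26.6 against 7.29%) and GTGGGT (36.1 against 14.2%).

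The variants were also counted by distance from the peak centre. In distal motif-free peaks the 9 words had 17.5 sites per kb within 50 bp of the centre and 5.50 beyond 200 bp, while the windows had 4.25 and 4.17. The RUNX motif in distal motif-bearing peaks had 8.98 and 2.56 sites per kb. The 9 words were chosen for being more frequent in the central 200 bp of these same peaks. A rise there follows from that choice, so this is a description without a test. The motif is 4 words, so its sites per kb are not on the same scale as those of the 9. By position, the words changed at letter 1, 2, 3 or 6 were in 79.0, 66.0, 60.2 and 56.5% of the centres of all motif-free peaks against 43.2, 49.5, 38.0 and 29.8% of windows, and those 4 positions passed the test. Changes at letter 4 (66.8 against 62.6%) and letter 5 (69.4 against 63.5%) did not pass there. Over whole peaks letter 5 passed as well (96.4 against 91.2%, odds ratio 2.56, adjusted exact p = 0.00362), so that 5 of the 6 positions passed, and letter 4 did not (95.3 against 91.8%, adjusted exact p = 0.0513). In distal motif-free peaks alone, letter 4 passed narrowly over whole peaks (94.8 against 90.3%, adjusted exact p = 0.0486), as did every other position. In promoter peaks letter 4 did not pass (96.4 against 96.3%).

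**Figure D3:**
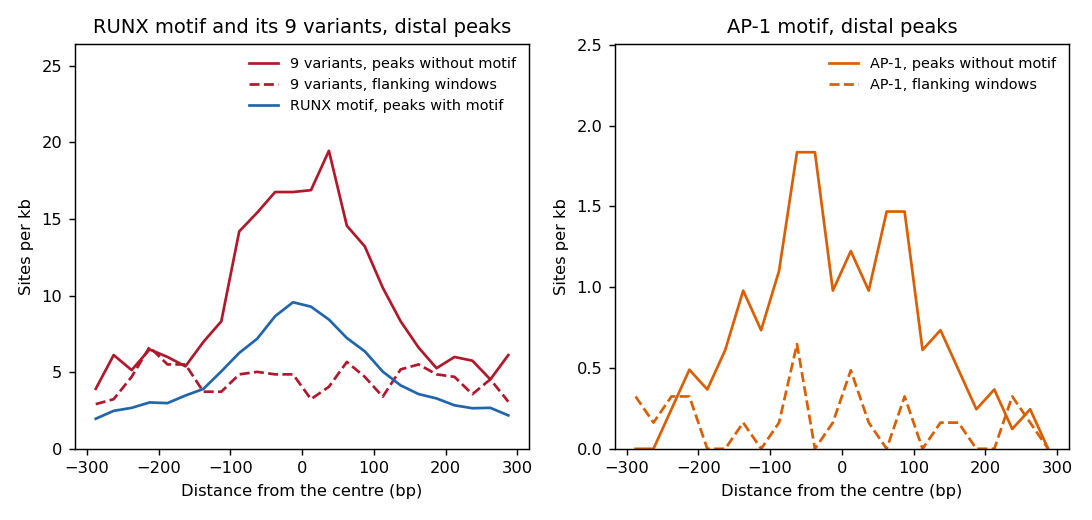
Sites per kb by distance from the peak centre in bp, in bins of 25 bp, for distal peaks: left, the 9 called variants in peaks without motif (solid red) and in windows (dashed red), and the RUNX motif in peaks with motif (blue); right, the AP-1 motif in peaks without motif (solid) and windows (dashed). The variants, chosen in the central 200 bp of these peaks, had 17.5 sites per kb within 50 bp of the centre. The AP-1 motif had 1.25.

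In all, 307 of the 327 distal motif-free peaks (93.9%) held at least 1 of the 9 words in their central 200 bp, against 57.9% of windows, and against 81.7% of distal motif-bearing peaks whose centre lacked the motif. As the words were chosen for being more frequent in these peaks than in these windows, the shares are given as a description with no test. Of the other 20, all but 3 held an ETS, AP-1 or GC box motif there. These motifs are also common beside the peaks, with ETS alone in the centres of 41.7% of the windows. Neither a variant nor any of these motifs was found in 57 of 247 windows (23.1%) and 3 of 327 peaks (0.917%).

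AP-1, the dimer of Fos, Jun and Batf family proteins, has a motif that was also more frequent at the centres of distal motif-free peaks than in windows. Its motif TGANTCA (C or G in place of N) was in the central 200 bp of 23.9% (78 of 327), in 4.86% of windows (odds ratio 6.13, adjusted exact p = 2.02e-09) and in 14.9% of distal motif-bearing peaks (odds ratio 1.78, 1.36 to 2.33, adjusted exact p = 0.000538). It was the only 1 of 18 fixed motifs that differed there from motif-bearing peaks (5.56%). Its parts GAGTCA (33.0 against 11.3% of windows) and GACTCA (29.4 against 10.1%) ranked among the 10 words with the smallest p. Over whole peaks the shares were 35.8% in distal motif-free and 30.3% in distal motif-bearing peaks, a difference that did not pass the test (adjusted exact p = 0.150). AP-1 sites had 1.25 sites per kb within 50 bp of the centre and 0.183 beyond 200 bp. Of the 78 peaks with AP-1 at the centre, 75 also held 1 of the 9 variants.

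The T-box motif GGTGTGA, bound by factors such as Tbx21 and Eomes, was in 10.7% of the centres of distal motif-free peaks and 2.43% of windows (odds ratio 4.81, adjusted exact p = 0.000670). In distal motif-bearing peaks it was in 7.07%, which did not differ by the test (odds ratio 1.57, 1.07 to 2.27, adjusted exact p = 0.147). The ETS motif was in 61.5% of the centres, against 41.7% of windows (odds ratio 2.23, adjusted exact p = 2.89e-05). Those 3, AP-1, T-box and ETS, were the motifs of 18 higher than in windows (16.7%), and 0 were lower.

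The 140 promoter motif-free peaks had another makeup. Their GC content was higher (median 59.0%, against 44.1% in their 82 flanking windows), and of 2076 words 208 (10%) were more and 157 (7.56%) less frequent than in windows. Of those 208, 191 hold CG, which 602 of the 2076 words do. GGGCGG, the GC box bound by Sp factors, ranked first, in 43.6% of the centres against 2.44% of windows (odds ratio 30.9). CGGAAG, a form of the ETS motif, was in 36.4 against 2.44% (odds ratio 22.9), and AGGCGG in 33.6% against 0 of 82 windows, which allows a share of up to 3.66%. Near matches to the RUNX motif were called for 14 of 56 words (25%), all 14 with CG in them, such as GGCGGT (25%, against 0 of the 82 windows) and TGCGGG (21.4 against 1.22%). CG is in 26 of the 56 near-match words, a larger part than among all 2076 words, and its share in the 25% was not tested. No near-match word without CG was called. TGTGGG and TGAGGT, which led in distal peaks, did not pass the test in promoter peaks (odds ratios 1.56 and 3.83, adjusted exact p = 0.466 and 0.0570). Whether those words differ between promoter and distal peaks was not tested.

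Over whole promoter peaks, ETS was in 97.1% against 80.5% of windows, the strict ETS motif CCGGAAGT in 18.6% against 0 of 82 windows, the GC box in 71.4 against 9.76% and the YY1 motif ATGGCGG in 20.0 against 2.44%. GATA, as NGATAA with A or T first, was the 1 motif that was less frequent (22.9 against 63.4%). These were 4 of 18 motifs higher (22.2%) and 1 lower (5.56%). Against promoter motif-bearing peaks, none of the 18 passed Fisher's exact test in either direction after adjustment (0.0%). The GC box was in 71.4 and 69.1%, ETS in 97.1 and 93.6%, and CCGGAAGT in 18.6 and 12.9%. T-box (5.0 and 12.1%, odds ratio 0.384) had an adjusted p of 0.139.

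Over all 467 motif-free peaks, 8 of 18 motifs were higher than in windows (44.4%), and CCGGAAGT was the 1 of 18 that differed from motif-bearing peaks (5.56%). It was in 7.92% (37 of 467) against 4.44% (odds ratio 1.85, 1.27 to 2.63, adjusted exact p = 0.0249). In the central 200 bp of all motif-free peaks, AP-1 (17.6 against 12.4%, adjusted exact p = 0.0178) and the motif of ZNF143, a promoter-binding zinc finger protein (3 of 467 against 4 of 11209 peaks, adjusted exact p = 0.0178), were the 2 of 18 (11.1%) that were higher than in motif-bearing peaks.

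**Figure D4:**
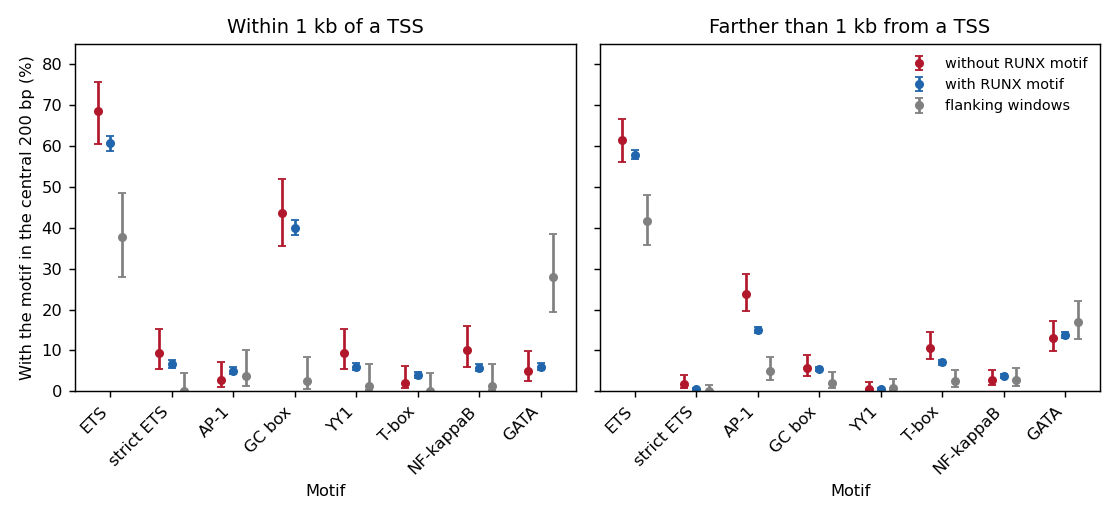
Percent of peaks without RUNX motif (red), peaks with RUNX motif (blue) and flanking windows without motif (grey) whose central 200 bp hold each motif, with 95% Wilson intervals, for promoter peaks (left) and distal peaks (right). Red lies above blue for AP-1 in distal peaks (23.9 and 14.9%), and both lie above the windows for the GC box in promoter peaks (43.6 and 40.0%, windows 2.44%).

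H3K4me1 marked fewer of the motif-free promoter peaks. Of the 140, 12 (8.57%) overlapped an H3K4me1 peak, against 592 of 2810 motif-bearing promoter peaks (21.1%, odds ratio 0.351, 0.176 to 0.641, adjusted exact p = 0.000336). In a binomial logistic model with width as a covariate the odds ratio was 0.366 (0.201 to 0.668, adjusted p = 0.00317). Promoter peaks with exactly 1 motif lay between them, at 16.2%. In the 4 width classes the motif-free promoter peaks overlapped H3K4me1 in 6.67, 8.82, 14.7 and 3.70%, and the motif-bearing ones in 20.5, 21.3, 21.4 and 20.9%, so the difference had the same direction in each class.

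Distal motif-free peaks overlapped H3K4me1 in 53.5% (175 of 327) and distal motif-bearing peaks in 58.0% (odds ratio 0.833, 0.664 to 1.05, adjusted exact p = 0.110). With width as a covariate the odds ratio was 1.13 (0.899 to 1.42), on the other side of 1, so no direction can be given. The ratio of the promoter to the distal odds ratio was 0.421 (0.223 to 0.798, p = 0.00797 for the interaction term of a binomial logistic model), and 0.428 (p = 0.00990) with width as a covariate. No H3K4me1 peak lay within 2 kb of 60% of the motif-free promoter peaks and 54.7% of the motif-bearing ones, and the median distance was 3371 and 3105.5 bp. CpG-rich sequence was also more frequent in motif-free peaks (above), and its part in the H3K4me1 difference was not tested.

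**Figure D5:**
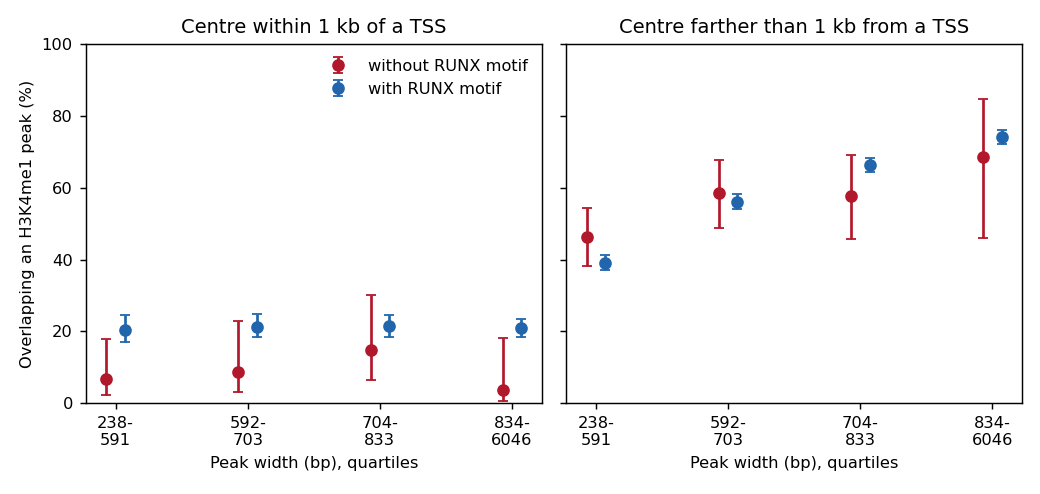
Percent of peaks without (red) and with (blue) a RUNX motif that overlap an H3K4me1 peak, by quartile of peak width in bp, with 95% Wilson intervals, for promoter peaks (left) and distal peaks (right). Red lies below blue in all 4 classes of promoter peaks, and above it in the 2 narrower classes of distal peaks.

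Peaks were given to protein-coding genes by GREAT domains, that is, a basal domain of 5 kb before and 1 kb after the start, stretched no more than 1000 kb up to the neighbouring basal domains. A Runx3 peak fell in the domains of 9372 genes, of which 763 (8.14%) had a motif-free peak, and 190 had no other. In 15 lists of genes of NK cells, other leukocytes and ribosomes, 41 of the 292 bound genes had one (14.0%). These genes held more Runx3 peaks each (1099 peaks in 292 domains, against 20765 in 9372), so the share is a count and not a comparison. Chemokines and trafficking had 5 of 18 bound genes with a motif-free peak, lymphocyte transcription factors 7 of 46, ribosomal proteins 6 of 36, NK receptors and cytotoxicity 4 of 41, cytokines and their receptors 4 of 31 and the ETS family 3 of 13. JAK-STAT and SOCS genes had 2 of 13, TNF and TNF receptor genes 2 of 15, T-cell receptor and T-cell marker genes 2 of 14, cell cycle and survival genes 2 of 26, AP-1 and BATF genes 1 of 12, RUNX and Cbfb genes 1 of 3, integrins and adhesion 1 of 15, B-cell markers 1 of 4 and myeloid markers 0 of 5.

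Id2 and Jun, both transcriptional regulators, were the listed genes with more than 1 motif-free peak, and in both these were a minority of the bound regions. Id2, an inhibitor of E proteins needed for NK cell development, had 2 among 32 peaks. The one at chr12:26548737-26549536, 768180 bp upstream, overlapped H3K4me1 over 229 of its 800 bp. Jun, an AP-1 subunit, had 2 among 10, at chr4:94862906-94863477 and chr4:94871045-94871655. They lay 144279 and 152437 bp upstream of its start, outside the Jun gene. Both overlapped H3K4me1, and the second held 1 AP-1 motif.

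In 9 of the 292 bound listed genes motif-free peaks were the only Runx3 peaks of the domain, against 190 of 9372 over all genes. A single peak in an intron, at chr17:35337174-35337951, served for Tnf, a cytokine of cytotoxic lymphocytes, and for Ltb, lymphotoxin beta. It lay 1389 bp downstream of the Tnf start, was clear of H3K4me1, and held 8 of the 9-word matches, 2 AP-1 motifs and 1 CCGGAAGT. Gzmg, a granzyme gene, had a peak at chr14:56786813-56787428, which also held 2 AP-1 motifs and overlapped H3K4me1 over 211 bp. This peak lay in an intron of the neighbouring granzyme gene Gzmn, 6315 bp downstream of its start. The Gzmn domain held 2 Runx3 peaks, of which 1 was motif-free. Id3, another E protein inhibitor, had a peak 54751 bp upstream at chr4:135644212-135645110, where 804 of 899 bp overlapped H3K4me1. Xcr1, a chemokine receptor, had one 10160 bp upstream at chr9:123781180-123781632. Ebf1, a B-cell transcription factor, had one in an intron at chr11:44736628-44737007, 404423 bp from the nearest motif-bearing peak. The remaining ones were Rps15, Rpl27 and Rplp2, which encode ribosomal proteins.

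Of all 140 promoter motif-free peaks, 12 overlapped an H3K4me1 peak (8.57%). At 5 listed genes a motif-free peak was centred within 1 kb of the start, and none of these overlapped H3K4me1. Besides Rps15 (50 bp downstream of the start, chr10:79754921-79755530), Rpl27 (20 bp, chr11:101303304-101303959) and Rplp2 (326 bp, chr7:148633159-148634030), they were Stat3, a transducer of cytokine signals (28 bp upstream, chr11:100800337-100801427), and Bcl6, a transcriptional repressor of lymphocytes (29 bp downstream, chr16:23988654-23989164). Each held at least 1 GC box and at least 2 ETS motifs, and the Bcl6 peak held 5 STAT motifs (TTCNNNGAA). Most promoter motif-free peaks held a GC box, and most held an ETS motif (above). Of the RUNX family, Runx1 had 1 motif-free peak among 30, at chr16:92820568-92821202 in an intron, wholly within H3K4me1 (635 bp) and 65 bp from a RUNX motif outside it. The ETS family genes Etv3, Ets2 and Erg each had 1 that overlapped no H3K4me1 peak. That of Etv3 lay 1614 bp upstream (chr3:87327434-87327996), that of Ets2 184245 bp downstream of its start, beyond the end of Ets2 (chr16:96107696-96108158), and that of Erg 170465 bp downstream, in an intron of Erg (chr16:95637410-95638060). The nearest H3K4me1 peak was only 5 bp from the Etv3 peak, but 22806 bp from the Ets2 peak and 15701 bp from the Erg peak.

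The widest motif-free peak was 1376 bp, in an intron of Prex1, an exchange factor for Rac (chr2:166498056-166499431), and lay wholly within H3K4me1. The next 9 were nearest to the starts of Jazf1 (1308 bp), Cdkn2aip (1251 bp), Wibg (1239 bp), Refbp2 (1169 bp), Rcor1 (1140 bp), Tnk2 (1134 bp), 2900073G15Rik (1128 bp), Tmpo (1124 bp) and B3gntl1 (1117 bp). Of these 10, 5 were promoter peaks, and all 5 were clear of H3K4me1, while 3 of the other 5 overlapped it. Over all motif-free peaks, 12 of 140 promoter peaks (8.57%) and 175 of 327 distal peaks (53.5%) overlapped it.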

How the data were processed

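ChIP-seq was done on IL-2-activated splenic NK cells, and the 2 Runx3, 2 NIS and 1 H3K4me1 libraries were grouped by their titles. The authors aligned reads to mm9 with ELAND, pooled both Runx3 libraries, and ran MACS with NIS as control. The deposited BED values, unit other, are peak starts (from 0, printed here from 1) and ends in bp, not counts or signal, for 11676 Runx3 and 34204 H3K4me1 peaks. Depth cannot be read from them.

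Sequence was NCBIM37 (the same build) and genes were GENCODE M1, in place of RefSeq genes. Flanking windows lay 10 kb to either side, clear of Runx3 peaks and unknown bases, and were kept where they also lacked the motif (329 for the motif-free peaks). The kept windows were narrower (median 572 bp, against 624 bp in motif-free peaks), so whole-peak shares against them are not matched for width. They were tested unpaired, with some peaks giving more windows than others. Shares, with 95% Wilson intervals, were tested by Fisher's exact tests (two-sided), adjusted in each family by Benjamini-Hochberg. Width was a covariate in logistic models. The 6-letter word step was tested on simulated data. Peaks with exact coordinates named here are the 10 widest, the 5 farthest from a motif, those at listed genes with a promoter member, with motif-free peaks only or with the most of them, and those at Gzmn, Runx1 and the ETS genes; 1 Id2 peak is not reported here. Members, motifs and gene lists were chosen with earlier results of these data known. Alternatives were the part searched, the motif, TSS set and distance, overlap rule, width, windows at 5 kb, and the gene rule. Tools were statsmodels 0.14.6, scipy 1.17.1, numba 0.67.0, pandas 2.3.3, matplotlib 3.10.9 and numpy 2.4.6 under python 3.11.15.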

Additional observations from a re-analysis of the deposited data

Results flagged for a closer look

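The difference in H3K4me1 overlap between peaks without and with a RUNX motif was not the same near and far from a TSS. Near a TSS the odds ratio was 0.351 (12 of 140 against 592 of 2810 peaks) and far from one 0.833 (175 of 327 against 4872 of 8399), and the ratio of the odds ratios was 0.421 (95% interval 0.223 to 0.798, p = 0.00797 for the interaction term of a binomial logistic model). With peak width as a covariate in the binomial model it was 0.428 (p = 0.00990). The H3K4me1 list rests on 1 library, so this could not be repeated in another.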

How the results depend on the processing

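The number of motif-free peaks, 467, became 252 with 200 bp added on both sides, 2690 in the central 200 bp alone and 85 with the 5-letter core. The odds ratio of lying near a TSS, 1.28, passed the threshold with protein-coding starts only (1.37, adjusted exact p = 0.0258) and in the binomial model with width as a covariate (1.61, adjusted p = 3.87e-05). For H3K4me1 overlap of all peaks, 0.702, it no longer passed in the binomial model with width as a covariate (0.814, adjusted p = 0.0529) or among peaks below the median width (0.928, adjusted exact p = 0.562). For distal peaks, 0.833, it turned direction with width as a covariate (1.13) and among narrow peaks (1.17), and passed the threshold with the centre inside H3K4me1 (0.760), with 0.5 of the peak overlapped (0.701) and with members also free of the motif in 100 bp on both sides (0.724). The ratio of strict ETS against windows could not be formed in the central 200 bp, where 0 windows held it. For promoter peaks the H3K4me1 odds ratio kept its direction and its side of the threshold under the 5 alternatives run.

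Taken apart by place, higher words numbered 87 in distal peaks and lower ones 157 in promoter and 88 in distal peaks, against 310 and 251 for all motif-free peaks; windows at 5 kb shared 209 of the 310. Motifs that differed from motif-bearing peaks, 1 of 18, were 2 in the central 200 bp and 4 with width as a covariate. Genes fell from 763 to 346 by the nearest protein-coding start within 50 kb. Directions also turned for GAGTCA in promoter peaks (odds ratio 0.540), for ETS against motif-bearing peaks in the central 200 bp (1.23) and with width (1.20), and for T-box against them in the central 200 bp (1.32), none past the threshold. The cause was not tested for any of these.

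No paired analysis was possible because the peaks were called on joined reads and no value carries a replicate number; for the same reason leaving out a replicate was not run. The planned share of repeat bases was not run, since the sequence used here carries no repeat marks. Peak height and depth are unknown, so strength of binding was not compared, and the centre of a peak stands in for its summit.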

Other observations

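The bound genes Mgat5 (16 Runx3 peaks) and Tmem163 (13), which neighbour each other on chromosome 1, had the highest number of motif-free peaks in their domains, 3 each. They were chosen after their values were seen. Among listed genes not described above, also chosen in that way, Ifng, the cytokine interferon gamma, had 1 motif-free peak among 13, centred 5298 bp upstream of its start and overlapped by H3K4me1 over 546 bp. Zap70, a kinase of antigen receptor signalling, had 1 among 6, which lay wholly within H3K4me1 (698 bp), as did 1 of 3 at Tcf7, a transcription factor of T and NK cells (528 bp). Cish, an inhibitor of cytokine signalling, had 1 among 4, with 9 matches to the variant words and 608 of 693 bp within H3K4me1.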
